A study of Mus musculus with 2 samples.

Results

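Fibronectin (Fn1), 6 integrin subunits that pair into receptors for it (Itga5, Itgav, Itga4, Itga8, Itgb1 and Itgb3) and transglutaminase 2 (Tgm2) were described in the mouse colon after a short period on a fibre diet. These 8 genes were taken from the 22180 genes with a probe set whose platform annotation names that gene alone, and 9 probe sets named one of them. They were grouped by function and selected on the measured psyllium-to-control intensities of these same arrays, with their differences already known. Every value of theirs is therefore a description of these arrays and supports no claim by test. The RNA came from the colons of healthy male ICR mice, an outbred stock, 7 weeks old. One group was fed for 5 days on a control diet without psyllium. The other was fed 10% psyllium in the diet for 5 days; psyllium is a gel-forming fibre from seed husks. Each diet has 1 array, and the labels name neither the number of mice behind an array nor the layers or segment of the colon that were taken. With no replicates, differences carry neither an error nor a test.

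Fibronectin is a large secreted glycoprotein that cells pull into fibrils around themselves. A soluble plasma form is made by the liver, and a cellular form by fibroblasts, smooth muscle and other cells in tissue. Integrins are cell-surface receptors made of an α and a β chain, and they link the fibrils outside the cell to actin inside it. The α5β1 receptor (Itga5 with Itgb1) binds the arginine-glycine-aspartate site of fibronectin and is the main receptor for fibril assembly. The αv chain (Itgav) binds that site too and pairs with β1, β3 and other β chains. The α4β1 receptor, found mainly on leukocytes, binds an alternatively spliced stretch of fibronectin, and α8β1 is found on smooth muscle and mesenchymal cells. Transglutaminase 2 cross-links matrix proteins and also binds fibronectin and β1 integrins at the cell surface. In the colon wall these genes are expressed chiefly, though not solely, outside the epithelium.

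The upstream sequences of the α5 and β1 genes are shown because these 2 chains form the main fibronectin receptor and both exceeded 1.5-fold in favour of psyllium. RefSeq promoter windows on GRCm38.p6 were matched for 5 of the 8 genes (Itga5, Itgav, Itga4, Itga8 and Itgb1). Only the 250 bases before the annotated start are given, on the strand of the gene. The Itga5 window is chr15:103366792-103367041 on the minus strand, and the Itgb1 window is chr8:128685404-128685653 on the plus strand. Capitals mark matches to the motifs named next.
Itga5: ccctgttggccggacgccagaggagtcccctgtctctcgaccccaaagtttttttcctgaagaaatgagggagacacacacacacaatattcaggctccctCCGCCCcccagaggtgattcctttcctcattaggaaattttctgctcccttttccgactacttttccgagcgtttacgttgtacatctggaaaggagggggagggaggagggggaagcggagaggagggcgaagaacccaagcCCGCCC
Itgb1: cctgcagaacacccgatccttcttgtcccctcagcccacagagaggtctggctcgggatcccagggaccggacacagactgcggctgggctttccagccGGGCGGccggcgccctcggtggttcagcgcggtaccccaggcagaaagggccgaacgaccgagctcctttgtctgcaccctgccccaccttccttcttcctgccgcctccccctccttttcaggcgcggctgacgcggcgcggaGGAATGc

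In these windows 6 motifs were searched on both strands: GGGCGG, a letter pattern bound by Sp1 family factors, TGACGTCA (CREB family), TGANTCA (AP-1), GGAATG (TEAD factors), TATAAA (the TATA box) and the CArG box of serum response factor, by name. The marked matches do not overlap one another. The Itga5 window held GGGCGG at 2 places, both on the opposite strand, from base -149 to -144 and from -6 to -1 before the start. The Itgb1 window held GGGCGG from -151 to -146 and GGAATG from -7 to -2. Of the other 3 windows, that of Itga4 held GGGCGG once, from -114 to -109, and those of Itgav and Itga8 held no match to any of the 6. Among 32851 promoter windows of the same length GGGCGG was present in 32.7% and GGAATG in 12.6%. The remaining motifs were present in 1.55% (TGACGTCA), 6.75% (TGANTCA), 12.4% (TATAAA) and 1.47% (CArG box) of windows. GC content was 55.6% for Itga5 and 68% for Itgb1, and lay between 56.4% and 64.4% in the other 3, against a median of 52.4% over all windows. The letters give a context for the genes and say nothing of which factor is bound.

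Values are normalised intensities on a linear scale. Differences are on the log2 scale, psyllium minus control. Genes were compared over the 11090 whose higher intensity reached 69.5, which is the median over genes of the brighter value, and a gene was counted as higher or lower when the arrays differed by at least 1.5-fold. Over these genes the median difference was -0.04, and 90% of them lay between -0.46 and 0.52. A 1.5-fold higher value on the psyllium array was found in 4.03% of genes past the filter and a 1.5-fold lower one in 2.42%. At 2-fold the shares were 1.06% and 0.514%. All 8 genes described here passed the filter, 7 of them on both arrays and Itga8 on the psyllium array alone, so that its place past the filter rests on the array where it is brighter.

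All 8 genes had the higher intensity on the psyllium array, beside 42.7% of all genes past the filter, but by very different amounts. Fibronectin and Itga5 stood far above the other 6. Both β chains were moderately higher, and the remaining α chains and Tgm2 differed by less than 1.5-fold. In all 4 of the 8 were at least 1.5-fold higher (Fn1, Itga5, Itgb1 and Itgb3), beside 4.03% of all genes past the filter, 2 of these at least 2-fold (Fn1 and Itga5), and none was lower. The median of the 8 differences was 0.55, beside -0.04 over all genes past the filter. Since the genes were chosen with these differences in view, nothing is read from the contrast with all genes.

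**Figure D1:**
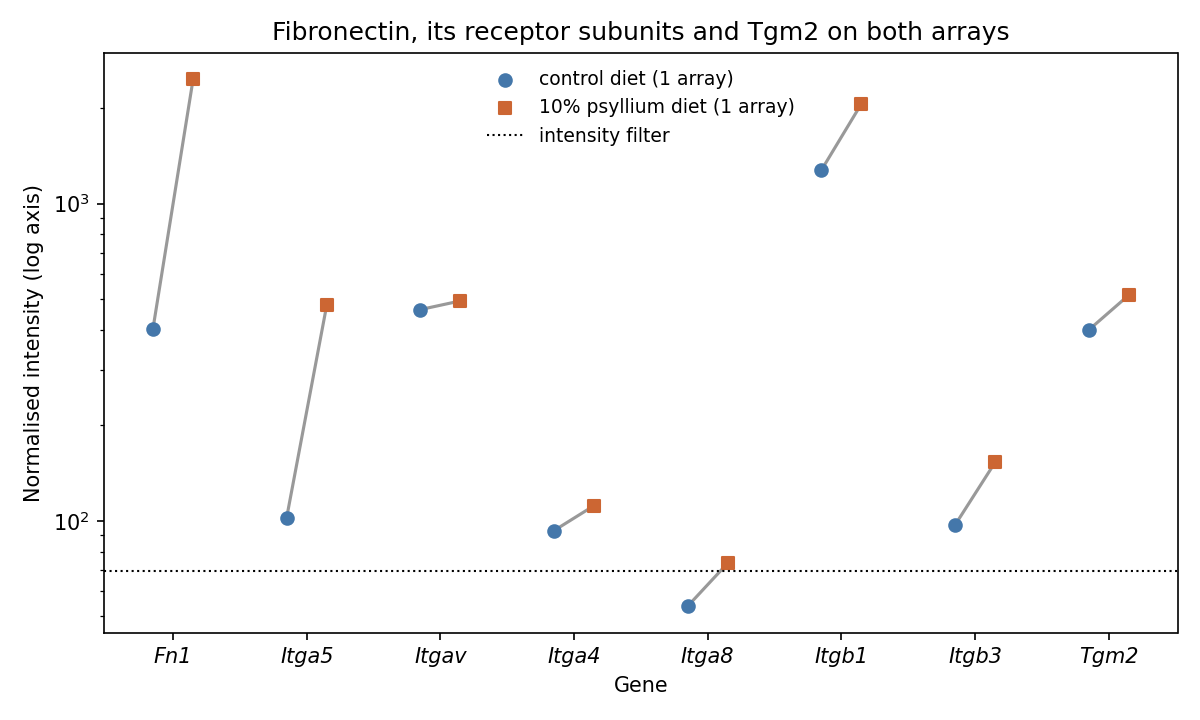
Normalised intensity (log axis) of the 8 genes on the control array (circles) and the psyllium array (squares), each from the probe set used for that gene, with 1 array per diet and no error bars. The steepest lines are those of Fn1 (404 to 2464) and Itga5 (102 to 479), the line of Itgav is nearly flat, and Itga8 crosses the intensity filter of 69.5 (dotted). Heights of different genes come from different probes and are not to be compared.

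The ligand had the largest difference of the set. Fibronectin had an intensity of 404 under the control diet and 2464 under psyllium. The psyllium value was 6.10-fold the control value, a difference of 2.61, and it ranked 4 among the 11090 genes past the filter. Both intensities lay far above the filter, so the fold does not rest on a dim value. The probe set summarises the gene as a whole, and the splice forms of fibronectin that α4β1 and other receptors distinguish were not analysed here.

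Among the α chains, Itga5 stood apart. Its intensity was 102 under the control diet and 479 under psyllium, a difference of 2.23 (4.68-fold) and rank 9 of 11090. The control value lay above the filter, though by a modest margin. With a pseudocount of 16, which damps folds of dim genes, its difference was 2.06.

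Itgav, the chain shared by all αv receptors, had nearly the same intensity on both arrays, 464 under the control diet and 494 under psyllium. The difference was 0.09, and 29.4% of the genes past the filter had a difference as high or higher. A second probe set naming Itgav was listed at an intensity of 23.0 on both arrays, with identical deposited values. It lay below the filter and says little about the gene. Identical values on both arrays were also deposited for 2.45% of all 41345 probe sets.

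Itga4, the α chain of leukocyte receptors that bind fibronectin and VCAM-1, had intensities of 93.2 (control) and 112 (psyllium), a difference of 0.26. A probe set that names both Cerkl and Itga4, and so falls outside the selection, had 27.4 and 32.7 and a difference of 0.25. Both readings are small and the second is dim. Itga8, the α chain whose partner ligand nephronectin is encoded by Npnt, had 53.8 under the control diet and 73.6 under psyllium. The difference was 0.45, but the control value lay below the filter, so the size of this fold is uncertain.

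The β chains differed alike. Itgb1, the partner of α5, αv, α4 and α8 and of most matrix-binding α chains, had an intensity of 1273 under the control diet and 2063 under psyllium. The difference was 0.70 (1.62-fold). Itgb3, which pairs with αv on mesenchymal and endothelial cells and with the αIIb chain on platelets, had 97.0 and 153, a difference of 0.66 (1.58-fold). The 2 chains thus lay just past 1.5-fold, at ranks 306 and 353 of 11090. With the pseudocount of 16 the Itgb3 difference was 0.58, just under 1.5-fold, and 3 of the 8 genes were then higher.

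Set by receptor, both chains were past 1.5-fold for α5β1 alone among the 5 pairs considered, which use only chains of the described set. In that pair the differences were 2.23 for the α chain and 0.70 for the β chain. For α8β1, α4β1, αvβ1 and αvβ3 the β chain was past 1.5-fold and the α chain was not, with α differences of 0.45, 0.26 and 0.09. Outside these pairs, α9β1, which also binds fibronectin, had both chains past 1.5-fold (Itga9 0.87, Itgb1 0.70). Having both chains higher was therefore not particular to α5β1. In αvβ5 and αvβ6 neither chain was higher by 1.5-fold (Itgb5 -0.02, Itgb6 -0.67). Chains were measured as RNA, and the amount of any assembled receptor was not measured.

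Tgm2, the matrix cross-linker that can act as a co-receptor for fibronectin, had intensities of 399 under the control diet and 515 under psyllium. The difference was 0.37 (1.29-fold), and 8.82% of genes past the filter had one as high or higher. As a yardstick, 332 genes had more than 1 probe set past the filter, and for these the absolute gap between the differences of 2 probe sets had a median of 0.18 and a 90th percentile of 0.46. That gap reflects probes on the same RNA and not animals. The differences of Itgav, Itga4, Itga8 and Tgm2 lay below that 90th percentile, Itga8 (0.45) only just, and those of Itgb1 and Itgb3 lay above it. The genes were chosen with these differences in view, and the gap holds no error between arrays. Nothing is therefore read from the side on which a gene fell.

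**Figure D2:**
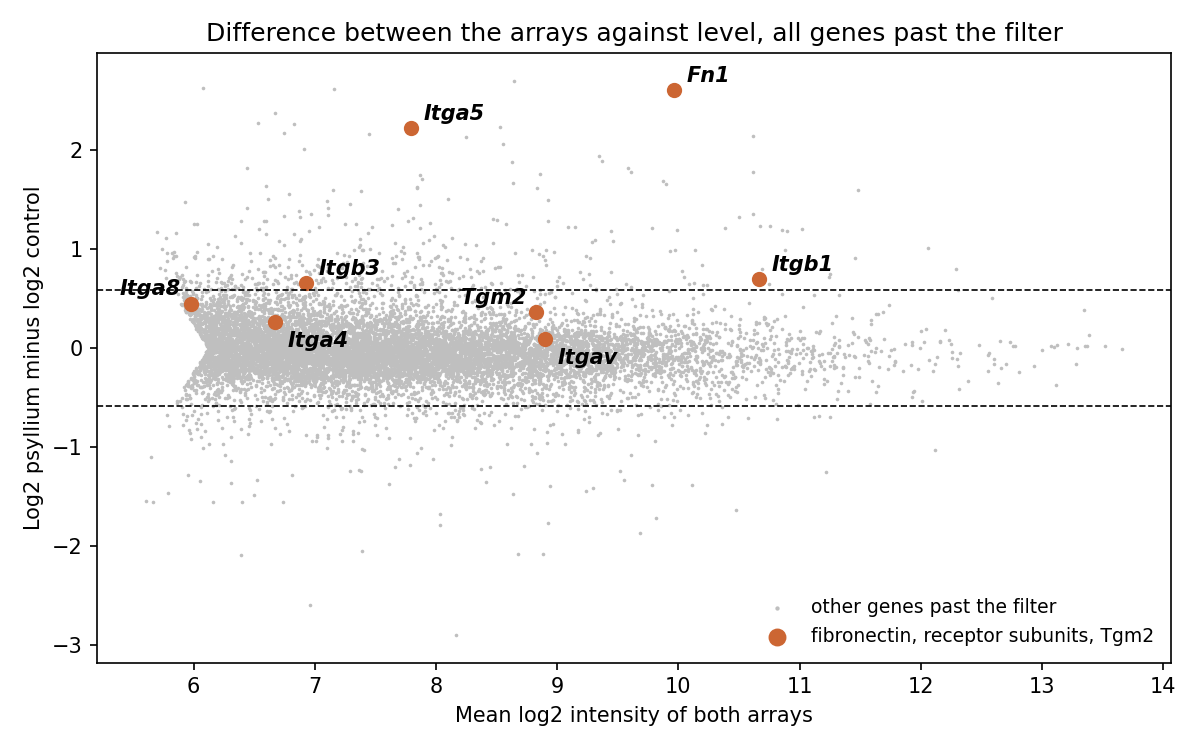
Difference (log2 psyllium minus log2 control) against mean log2 intensity for the 11090 genes past the filter (grey) and the 8 genes described (orange), with 1.5-fold marked by dashed lines. Fn1 (2.61) and Itga5 (2.23) lie near the top of the whole cloud, Itgb1 and Itgb3 lie just above the upper dashed line, and Tgm2, Itga8, Itga4 and Itgav lie inside it.

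The spread of the differences varied little with level. In 4 equal groups of genes ordered by mean intensity the SD across genes ran from 0.31 to 0.34, and the share at least 1.5-fold higher from 4.87% in the dimmest group to 3.21% in the brightest. Fn1, Itgav, Itgb1 and Tgm2 fell in the brightest group, Itga5 in the next, Itgb3 in the one below and Itga4 and Itga8 in the dimmest.

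The rest of the integrin family went both ways. Counts for this and the following lists stand beside 4.03% higher and 2.42% lower among all genes past the filter. Of 20 other integrin subunits listed, 19 were measured and 13 passed the filter, of which 2 were at least 1.5-fold higher, 1 was lower and 10 were neither. Their median difference was -0.02. The higher ones were Itga1, the collagen-binding α1 chain of smooth muscle and other mesenchymal cells (430 and 904, a difference of 1.07), and Itga9, whose receptor binds tenascin-C and a spliced segment of fibronectin (114 and 209, 0.87). Both pair with β1. The lower one was Itgb6, the epithelial partner of αv and itself a fibronectin receptor chain (112 and 70.6, -0.67).

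Other chains that pair with αv, α4 or β3 were near even or dim. Itgb5, a further αv partner, had 270 under the control diet and 267 under psyllium. Itgb8 and Itgb7, partners of αv and α4, lay below the filter on both arrays, as did Itga2b, the platelet partner of β3 (52.2 and 58.2). The laminin-binding chains Itga3, Itga6 and Itgb4 of epithelial cells differed by -0.19, 0.22 and -0.21. The leukocyte chain Itgb2 differed by -0.03, and Itgae, which holds lymphocytes to epithelial E-cadherin, by -0.39. Most chains of epithelial and lymphoid cells were thus within 1.5-fold, on either side of 0.

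**Figure D3:**
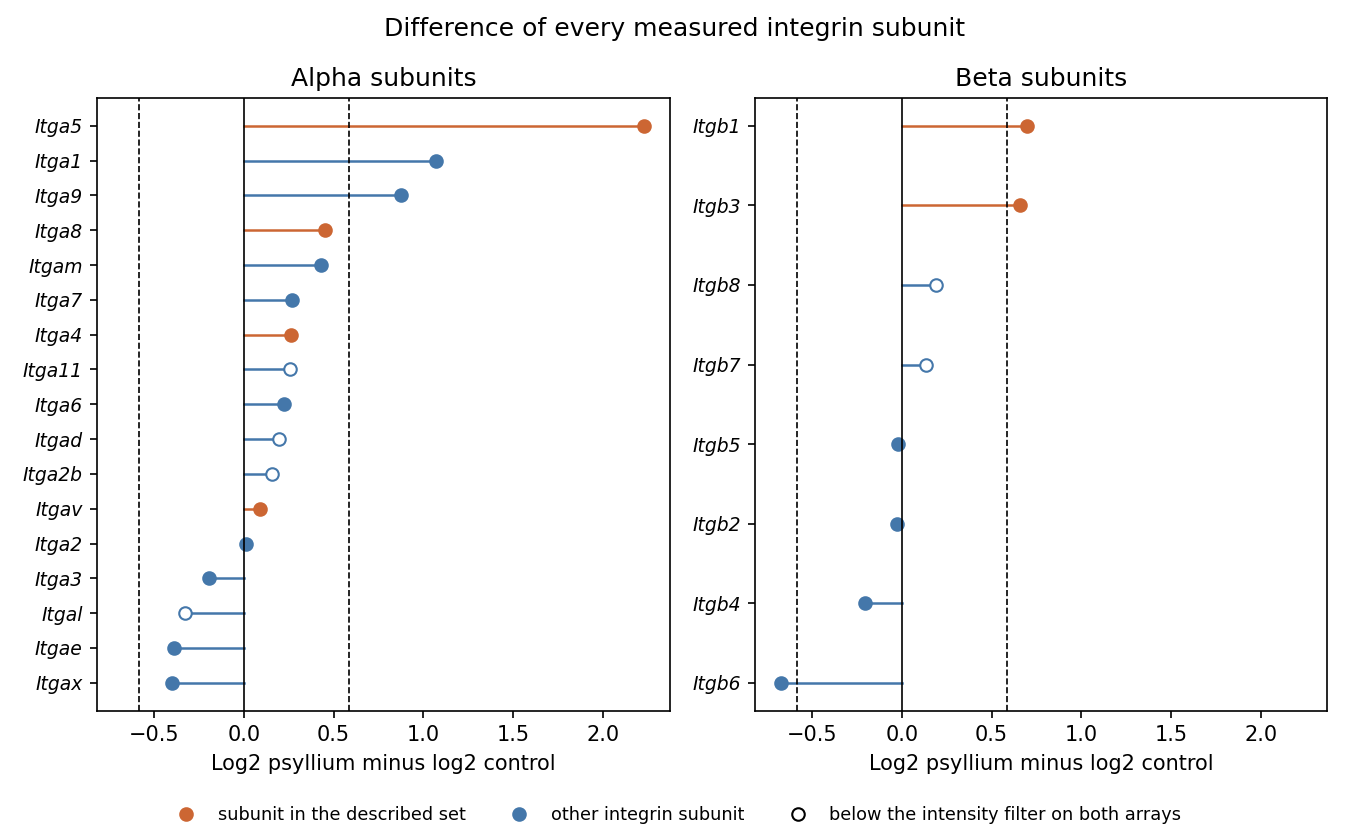
Difference (log2 psyllium minus log2 control) of each measured integrin subunit, α chains on the left and β chains on the right. Orange marks the 6 subunits described and blue the 19 others, open symbols lie below the intensity filter on both arrays, and dashed lines mark 1.5-fold. Itga5 (2.23) has the largest difference of the subunits measured, followed by Itga1 (1.07), and Itgb6 (-0.67) the lowest.

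Other ligands of these integrins were higher in part. Of 20 listed, 18 were measured and 12 passed the filter. Of these 7 were higher by 1.5-fold or more, none was lower, and the median stood at 0.67. The matricellular protein Ccn2 had 84.4 under the control diet and 225 under psyllium (1.41), but a second, dim probe set of it differed by -0.11. Periostin, Postn, which binds αv integrins and fibronectin, had 983 and 2517 (1.36), and tenascin-C, Tnc, which binds fibronectin, had 248 and 591 (1.25). Ccn1 (1.06), Emilin1 (0.80), a ligand of α4β1 and α9β1, and Ltbp1 (0.75), which is laid down on fibronectin fibrils, followed. The seventh was thrombospondin-1, Thbs1 (317 and 481, 0.60).

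Of the 12 ligands 5 were within 1.5-fold, and 3 of these are given here. Vcam1, the endothelial ligand of α4β1, had 94.0 and 101. Npnt, the ligand of α8β1, had 112 and 134, a difference of 0.25. Transforming growth factor β1, Tgfb1, whose latent form is held by αv integrins, had 125 and 124. The plasma ligands vitronectin (Vtn) and the fibrinogen chains Fga, Fgb and Fgg lay below the filter on both arrays, between 7.12 and 40.9.

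Genes of fibronectin assembly, matrix partners and clearance were higher in 11 of 21 past the filter and lower in none. Of 24 listed 23 were measured, and the median past the filter was 0.64. Among the 11, Timp1 (41.4 and 78.2, a difference of 0.92) had a control value below the filter. With both arrays past the filter 10 were higher. The fibrillar collagens, whose deposition in culture depends on fibronectin fibrils, led the list. Col3a1 had 422 under the control diet and 1449 under psyllium (1.78), Col1a1 had 252 and 853 (1.76), Col1a2 289 and 817 (2.83-fold) and Col5a1 105 and 250 (1.26). A second probe set of Col1a2 differed by 1.47, and a dim one of Col5a1 by 0.09. The proteoglycan decorin, Dcn (1.18), and fibulin-2, Fbln2 (0.96), which binds fibronectin, were also higher. The syndecans, proteoglycans that act beside α5β1, were mixed: Sdc3 differed by 0.76, Sdc2 by 0.22, Sdc4 by -0.13 and Sdc1 by -0.18. The receptor Lrp1, which clears matrix proteins, differed by -0.01, and the proteases Mmp2 and Mmp14 by 0.45 and 0.48. Col1a1, Col1a2, Col3a1 and Dcn also stand in the fibroblast marker list given further on, so the lists are not separate findings.

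Among other cross-linking enzymes 4 of 8 past the filter were higher and 1 was lower, of 16 listed and 14 measured, with a median of 0.79. The lysyl oxidases Lox (46.1 and 164, 1.83) and Loxl1 (64.4 and 189, 1.56), which cross-link collagen and elastin, had control values below the filter. The collagen lysyl hydroxylase Plod2 had 74.2 and 187 (1.33). In the transglutaminase family itself the members parted. F13a1, the factor XIII A chain of macrophages and platelets, had 86.0 under the control diet and 201 under psyllium (1.22). Tgm7 had 111 and 52.5 (-1.08), the latter below the filter. Tgm1, Tgm3, Tgm4, Tgm5, Tgm6 and F13b lay below the filter on both arrays. Tgm2, at 0.37, thus lay between the 2 relatives that passed the filter.

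Inside the cell most of the focal adhesion genes, which tie integrins to actin, were within 1.5-fold. Of 32 listed, 29 were measured and 26 passed the filter. Of these 6 were at least 1.5-fold higher, beside 4.03% of all genes past the filter, none was lower and 20 were neither. The median was 0.10. The actin cross-linker filamin A, Flna, had 915 under the control diet and 2294 under psyllium (1.33), and Tns1, a tensin of fibrillar adhesions, had 312 and 760 (1.28). Fermt2, the kindlin of mesenchymal cells, differed by 0.84 and the α-actinin Actn1 by 0.84. Rsu1 (0.65) and Tgfb1i1 (0.64), a paxillin relative of smooth muscle, completed the 6. Vinculin, Vcl, differed by 0.55 and talin-1, Tln1, by 0.43. Paxillin, Pxn, differed by -0.04, the epithelial kindlin Fermt1 by 0.06, Src by -0.21 and Ptk2b by -0.41.

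**Figure D4:**
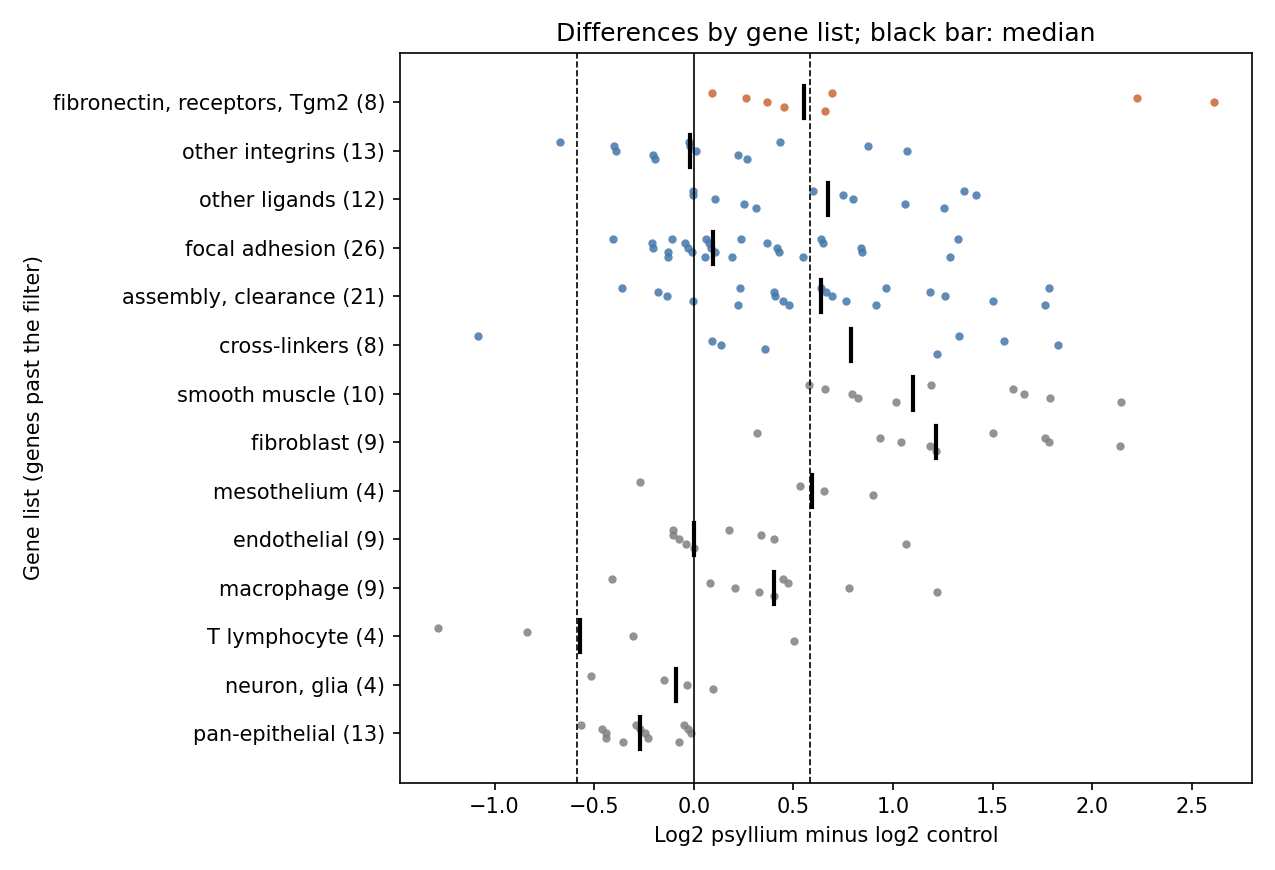
Difference (log2 psyllium minus log2 control) of each gene past the intensity filter, by gene list, with the number of genes in brackets, the median as a black bar and 1.5-fold as dashed lines. Orange marks the 8 genes described, blue the related lists and grey the cell type markers. Fn1 (2.61) and Itga5 (2.23) lie to the right of each gene shown in the marker lists, and the medians of smooth muscle (1.10) and fibroblast (1.22) markers lie to the right of that of the 8 genes (0.55).

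Most listed markers of the mesenchymal cells that make fibronectin were higher on the same array. Of 10 smooth muscle markers, all past the filter, 9 were higher and none was lower. Their median was 1.10 and their summed intensity 11560 under the control diet and 27469 under psyllium. Of 9 fibroblast markers past the filter (10 measured) 8 were higher and none was lower. The median was 1.22 with sums of 4459 and 10654. The 8 higher ones encode collagens and other matrix proteins. The other, Pdgfra, had 545 under the control diet and 678 under psyllium (0.32). Pan-epithelial markers, 13 of 13 past the filter, had no gene past 1.5-fold, a median of -0.27 and sums of 23150 and 19790. In bulk RNA fewer cells of a type and less RNA per cell cannot be told apart. The part of these cells in the values of the 8 genes was not tested. The differences of Fn1 and Itga5 exceeded the largest of the smooth muscle and fibroblast lists (Actg2 and Lum, both 2.14). They lay 1.39 and 1.01 above the fibroblast median. Both genes were chosen with these differences in view, so nothing is read from this contrast. The other 6 genes lay below the medians of both lists, Itgb1 by 0.41 below that of smooth muscle and Itgav by 1.01 below it.

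Markers of further cell types that carry these integrins or fibronectin were as follows. Of 9 endothelial markers past the filter 1 was higher (Lyve1, 1.06), and the median was 0. Macrophage markers had one of 0.40 with 2 of 9 higher (Mrc1 at 1.22 and Cd163 at 0.78, the latter with a control value of 54.5, below the filter). The lowest of the 9 was Mertk, with 540 under the control diet and 406 under psyllium (-0.41). Of 4 mesothelial markers past the filter 2 were higher, Upk1b (a difference of 0.90) and Upk3b (0.66), each with a control value below the filter. Gpm6a differed by 0.53, also with a control value below the filter. Krt19, which also stands in the pan-epithelial list, passed on both arrays with 2109 under the control diet and 1746 under psyllium (-0.27). The defining marker Msln lay below the filter on both arrays (45.3 and 54.1). T lymphocyte markers had 2 of 4 past the filter lower, led by Cd3e (-1.28), while Thy1 differed by 0.50. None of 4 neuron and glia markers and none of 3 B and plasma cell markers past the filter reached 1.5-fold, with medians of -0.09 and 0.23. None of the 5 measured platelet markers, Itga2b among them, passed the filter. For hepatocytes, the source of plasma fibronectin, Alb lay at 16.6 and 17.6, below the filter, and 1 of 7 markers passed it (Apoa1, also made by intestine, at -0.24). The labelled tissue carried its markers: 10 of 11 measured colon markers passed the filter, among them Car1, Cdx2 and Muc2. For comparison, 11090 of all 22180 genes passed, since the filter is a median. Of the 10 markers 3 were at least 1.5-fold lower (Aqp8, Car4 and Aqp4) and none higher. Aqp8 (307 under the control diet and 50.5 under psyllium) passed on the control array alone.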

How the data were processed

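Colon RNA was biotin-labelled for whole-transcript arrays, 1 per diet. The authors deposited normalised intensities, not logged, for each probe set. The submitters' processing notes name RMA and Affymetrix Expression Console and give no version. The genome build and annotation are not given in the sources used here. Deposited intensities ran from 1.92 to 13675 (control) and from 1.76 to 13841 (psyllium). Precision is limited by the number of arrays. Differences are relative to the bulk of transcripts if RMA equalised the arrays.

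Intensities were converted to log2 with no pseudocount. Genes were named from the platform annotation through a RefSeq table of assembly GRCm38.p6. Of 41345 probe sets, 23521 name 1 gene, 1814 several and 16010 none here. Where a gene had more than 1 probe set (1082 genes), that with the highest mean log2 value was taken. No test was run. Promoter windows came from RefSeq, GRCm38.p6. The 8 genes and the lists were chosen with earlier results of these data known. Each of the 8 is named. Of each related list up to 6 filtered genes are named, those farthest apart among genes past 1.5-fold, and of each marker list the genes at both ends could be named. Genes given besides these were chosen after their values were seen. The counting was run on shuffled differences of these arrays with known large folds added. That checked the arithmetic, and it did not cover folds near 1.5 or the error of a difference. Python 3.11.15, pandas 2.3.3, statsmodels 0.14.6 and matplotlib 3.10.9 were used. Alternatives changed the probe set rule, normalisation, intensity trend (lowess), pseudocount, filter and fold.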

Additional observations from a re-analysis of the deposited data

Results flagged for a closer look

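Probe sets that name several genes took no part in the comparisons. Of those that include a gene of the related lists, 3 were past the filter and at least 1.5-fold higher under psyllium. Among the genes compared, 4.03% of those past the filter were that much higher. Both probe sets naming the lysyl oxidase Loxl2 together with Gm21451 were higher. The first had an intensity of 105 in the control and 349 in the psyllium colon, and the second had 104 and 256. The probe set naming Lims2, a focal adhesion adaptor, together with Gpr17 had 161 and 268. Past the filter but within 1.5-fold were the probe sets naming Ilk, of the focal adhesion list, with Taf10 (0.53 and -0.11) or Rrp8 (-0.04). The probe set naming Plod3 with Mir702 differed by 0.16. In the other direction, the probe set naming Itgb3bp, of the focal adhesion list, together with Pgm1 had 392 (control) and 251 (psyllium), a difference of -0.64. The probe set naming Itgb3bp alone had 102 and 92.9, a difference of -0.13. Which of the named genes gave the signal was not tested.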

How the results depend on the processing

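All 8 genes kept the higher value on the psyllium array under each alternative that gave a value. Across the alternatives Fn1 differed by 2.56 to 2.65, Itga5 by 2.06 to 2.28, Itgb1 by 0.69 to 0.73, Itgb3 by 0.58 to 0.68, Itgav by 0.05 to 0.15, Itga4 by 0.23 to 0.27, Itga8 by 0.36 to 0.45 and Tgm2 by 0.35 to 0.42. Itga8 has no value when both arrays must pass the filter. At 2-fold, a stricter count by construction, the numbers higher were 2 of the 8 genes, 1 other integrin, 4 other ligands, 2 focal adhesion genes and 5 assembly and clearance genes, and 0 other integrins were lower. With a pseudocount of 16, 0 other integrins were lower. With both arrays past the filter, which leaves fewer genes, 2 cross-linkers were higher and 0 lower. The other 74 counts and medians stayed within 1.5 times the value reported, or for medians within 0.18. The median over all genes ranged from -0.04 to -0.0025 over the alternatives. No paired analysis was possible because each diet has 1 array, and for the same reason no replicate could be left out. Dim control values limit the folds of Itga8, Lox, Loxl1 and Timp1.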
